A study of Neogale vison with 6 samples.

Results

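NRF2 (encoded by NFE2L2), its inhibitor KEAP1 and their classical antioxidant target genes were followed in Mv1Lu cells, an epithelial line from mink lung, after cholesterol depletion (CD). The 9 genes of this set, NFE2L2, KEAP1, HMOX1, NQO1, GCLC, GCLM, TXNRD1, SRXN1 and GSR, were looked up by gene symbol among the 24526 genes of the deposited table of read counts. Of these, 7 were found by symbol, while GCLM and GSR were not. A row with the symbol GSH0 is described in the table as the modifier subunit of glutamate-cysteine ligase, which is the protein encoded by GCLM. Its values are given under the name GSH0 and are not counted among the 7. No row could be assigned to GSR, which was not analysed here. Of the 7 genes, 6 had enough reads to be tested, and NQO1 did not.

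The data comprised 3 libraries of untreated cells (control) and 3 libraries of cells after CD. For CD, cells were kept for 16 h in 50 μM lovastatin, a statin that blocks HMG-CoA reductase, together with 50 μM mevalonate, the product of that enzyme, in medium containing 10% lipoprotein-deficient serum (LPDS). Because the control cells are labelled only as untreated, the effects of the statin, the mevalonate and the serum cannot be told apart. All cells were of the same line and the labels name no genetic change. Nor do they say whether the replicates came from separate cultures, so the p-values measure only the spread between these libraries. In such bulk samples, fewer cells that express a gene and less of its RNA per cell cannot be told apart either.

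NRF2 is a transcription factor that is made continuously and, in unstressed cells, degraded continuously. KEAP1 binds it and serves as the adaptor of a CUL3 ubiquitin ligase that marks it for the proteasome. Oxidants and electrophiles modify cysteines of KEAP1, NRF2 escapes degradation, pairs with a small MAF protein in the nucleus, and activates genes that carry an antioxidant response element. In lung epithelium, the pathway is known for protection against inhaled oxidants, and mutations that activate it are frequent in lung cancer. Its activity is set mainly at the level of the NRF2 protein, which was not measured by these libraries.

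The libraries held between 13473820 and 18633764 reads counted on genes, and levels are given as CPM (reads of a gene scaled to the library total, with the TMM factor of edgeR applied). Means are followed by ± SD of 3 libraries (n = 3 per group), and log2 fold changes (CD over control) by ± their standard error. Differences were tested over 12148 genes with the quasi-likelihood test of edgeR and called at a false discovery rate (FDR, Benjamini-Hochberg) under 0.05. At this threshold 47.7% of all tested genes were called, 24.8% higher and 22.9% lower in CD, which is the background against which each count has to be read. Reads that were not counted on a gene made up 29.3% to 47.2% of the control and 31.1% to 41.4% of the CD libraries. The CD libraries varied more than the controls, with a biological coefficient of variation of 0.213 against 0.0842. CD replicate 3 lay apart from the other CD libraries on the second principal component (12.3% of the variance, at 37.2 against -30.8 and -7.58), so values without it are given below. Of 6 epithelial markers found, EPCAM, CDH1 and CLDN7 stayed under 0.5 CPM in every library, so that these defining markers of epithelium were nearly absent. KRT19 was abundant and lower in CD (936 ± 66.9 to 458 ± 77.1 CPM, edgeR FDR of 0.000274), CLDN4 was higher (0.603 ± 0.231 to 7.03 ± 1.11 CPM, edgeR FDR of 9.61e-06), and OCLN, at 5.40 to 7.85 CPM, was not called. Their summed level, nearly all from KRT19, was 892 to 1019 CPM in control and 393 to 546 CPM in CD. Of 8 mesenchymal markers, 5 were tested, and 4 of these were lower, namely COL3A1, PDGFRB, COL1A1 and COL1A2, with log2 fold changes of -1.72, -1.08, -0.93 and -0.37. VIM, at 3690 to 4788 CPM, was not called and made up most of their sum (4264 to 4535 CPM in control, 3919 to 4969 CPM in CD), while THY1 had no reads. The other two, LUM and DCN, were too low to be tested, LUM at 0.0716 to 0.220 CPM in control and 0.553 to 0.864 CPM in CD, and DCN at 0 to 0.110 CPM and 0.0615 to 0.491 CPM. The 5 immune markers found summed to 5.20 to 5.84 CPM in control and 17.6 to 23.3 CPM in CD, nearly all from the lysosomal protein CD68, which was higher, as was CD14. PTPRC was at no more than 0.0720 CPM, and CD79A and LYZ had no reads. The sums of 4 endothelial markers were 0.0723 to 0.220 CPM and 1.17 to 1.96 CPM, in CD mostly from VWF, which was higher (log2 fold change 3.38 ± 0.57, edgeR FDR of 0.000882). PECAM1, not tested, had 0 reads in each control library and 4, 5 and 2 reads in the CD libraries, and CDH5 and KDR stayed under 0.1 CPM. The part of these marker levels in the results below was not tested.

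The mRNAs of NRF2 and of its inhibitor moved in opposite directions. NFE2L2 (ENSNVIG00000006995) was at 96.9, 93.0 and 83.0 CPM in control libraries 1, 2 and 3, as against 147, 151 and 155 CPM after CD. Every CD library was above every control library, and the CD libraries lay close together (coefficient of variation 2.72%). The mean rose from 91.0 ± 7.17 CPM to 151 ± 4.10 CPM, or 1.66-fold, a log2 fold change of 0.73 ± 0.11 (edgeR FDR of 0.00041). KEAP1 (ENSNVIG00000024081), the substrate adaptor of the ligase that degrades NRF2, was at 329, 331 and 348 CPM in the control and at 193, 217 and 210 CPM in the CD libraries. Here every CD library was below every control library. The mean fell from 336 ± 10.6 CPM to 207 ± 12.5 CPM, with a log2 fold change of -0.70 ± 0.11 (edgeR FDR of 0.000421), so that the control level was 1.63 times the CD level. Both genes were called under all 14 alternative settings, with log2 fold changes between 0.67 and 0.78 for NFE2L2 and between -0.77 and -0.64 for KEAP1.

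The ratio of NFE2L2 to KEAP1 reads within a library does not depend on the scaling between libraries. It was examined after the values of both genes had been seen, and since the lengths of the transcripts are not known here it says how the balance changed and not which mRNA is more abundant. The ratio was 0.295, 0.281 and 0.238 in the control libraries and 0.761, 0.696 and 0.739 in CD. The groups did not overlap, which was fixed beforehand, since the groups did not overlap for either gene and the genes moved in opposite directions. The mean went from 0.271 ± 0.0293 to 0.732 ± 0.0331, a 2.70-fold increase that combines the changes of the single genes. For the same reason, an exact permutation test could only give a two-sided p of 0.1, the smallest that 3 libraries against 3 allow. This p also holds for each single gene whose groups do not overlap.

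**Figure D1:**
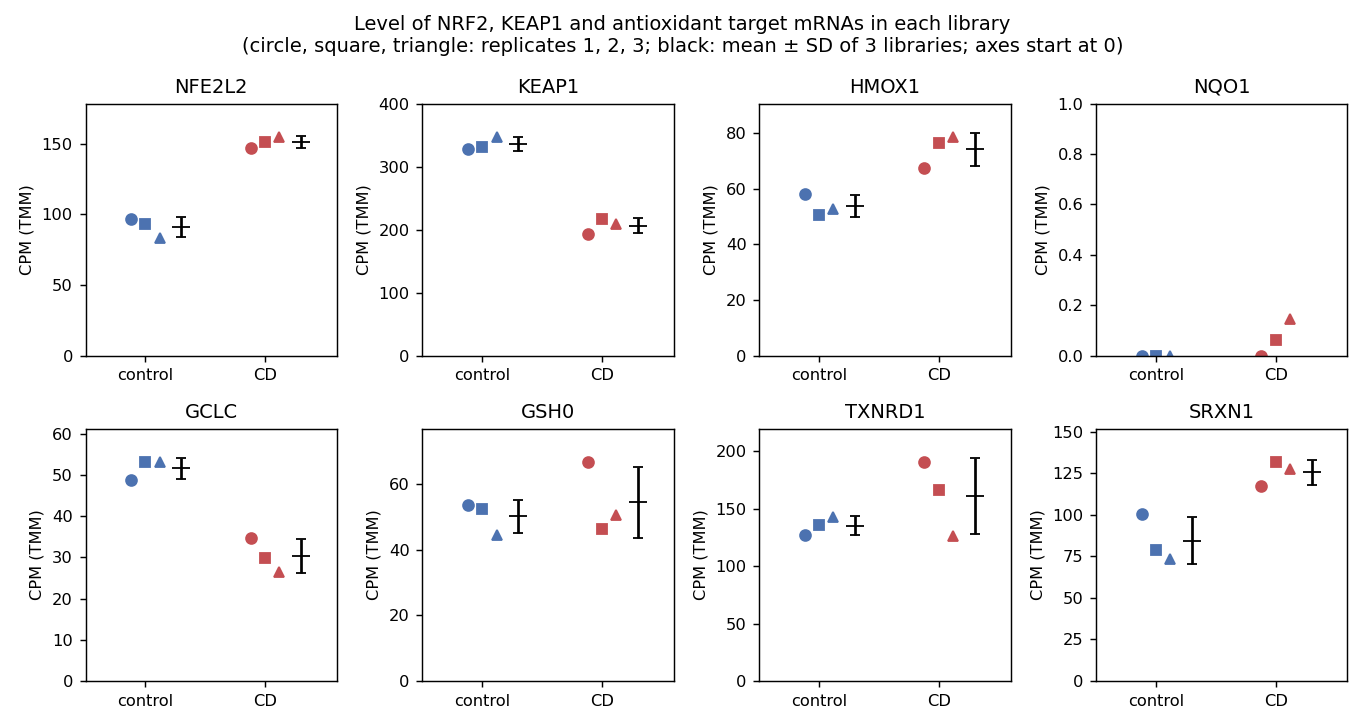
Level of each mRNA in CPM after TMM normalization (vertical axes from 0, each with its own scale) in the 3 control (blue) and 3 CD (red) libraries, with the mean ± SD in black, which is left out for NQO1. The CD libraries of NFE2L2, HMOX1 and SRXN1 all lie above the control libraries, those of KEAP1 and GCLC all lie below them, and for TXNRD1 and GSH0 the groups overlap.

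Among the target genes, the changes went both ways. Over the 6 tested genes of the set, NFE2L2 and KEAP1 included, 3 were higher (NFE2L2, HMOX1 and SRXN1), 2 were lower (KEAP1 and GCLC), and TXNRD1 was not called. The median log2 fold change of the 6 genes was 0.36, against 0.06 over all tested genes. The groups did not overlap for 5 of the 6 genes, and for 58.0% of all genes tested. With so few genes, a count of 5 called in 6, against 47.7% of all tested genes, is a description and not a property of the set.

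HMOX1 encodes heme oxygenase 1, the inducible enzyme that breaks heme down to biliverdin, iron and carbon monoxide. It was at 58.2, 50.6 and 52.8 CPM in control and 67.4, 76.5 and 78.9 CPM in CD replicates 1, 2 and 3. The CD libraries were all above the controls, but the lowest of them exceeded the highest control by less than the range within CD. The mean rose from 53.9 ± 3.90 to 74.3 ± 6.05 CPM, or 1.38-fold, with a log2 fold change of 0.46 ± 0.12 (edgeR FDR of 0.01). This call is near its limit. At an FDR under 0.01, a limit that 33.3% of all tested genes passed, HMOX1 was not called, and without control replicate 2, control replicate 3 or CD replicate 2 its FDR was 0.0543, 0.0508 and 0.0565, with log2 fold changes of 0.42, 0.45 and 0.41. HMOX2, the constitutive heme oxygenase, was at 56.8, 64.5 and 59.2 CPM in control and 119, 124 and 143 CPM in CD, and it rose 2.14-fold (log2 fold change 1.10 ± 0.12, edgeR FDR of 5.72e-05). The difference between the changes of HMOX1 and HMOX2 was not tested.

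SRXN1 encodes sulfiredoxin, which repairs peroxiredoxins that have been overoxidized to the sulfinic form. It was at 101, 78.9 and 73.6 CPM in control and 117, 132 and 128 CPM in the CD libraries. The groups did not overlap, although control replicate 1 lay closer to the CD libraries than the other controls did. The mean rose from 84.4 ± 14.3 to 126 ± 7.61 CPM, 1.49-fold, with a log2 fold change of 0.57 ± 0.14 (edgeR FDR of 0.00644). The call held under all 14 alternative settings, with log2 fold changes from 0.48 to 0.72.

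TXNRD1, the cytosolic selenoenzyme that reduces thioredoxin with NADPH, was at 127, 136 and 143 CPM in control and at 191, 166 and 126 CPM in CD replicates 1, 2 and 3. CD replicates 1 and 2 were above all controls, whereas CD replicate 3 was slightly below the lowest control. The coefficient of variation was 20.3% among the CD and 6.04% among the control libraries, and TXNRD1 was not called (log2 fold change 0.25 ± 0.15, edgeR FDR of 0.196). The 95% interval of the log2 fold change, from -0.09 to 0.59, leaves room for no change as well as for a change of the size seen in SRXN1. Without CD replicate 3 the log2 fold change was 0.36 (standard error 0.11, FDR 0.00334, edgeR), and the gene was called. This was the only one of 14 alternative settings in which it was, and in that fit 58.6% of all tested genes were called, 29.3% higher and 29.2% lower. CD replicate 3 decided no other call of the 6 genes. Without it, the log2 fold changes were 0.68 for NFE2L2, -0.75 for KEAP1, 0.38 for HMOX1, -0.72 for GCLC and 0.53 for SRXN1, all called.

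Glutamate-cysteine ligase, the enzyme of the rate-limiting step in the synthesis of glutathione, has 2 subunits, of which the mRNA of the catalytic one was lower and that of the modifier was not called. GCLC, the catalytic subunit, was at 48.7, 53.1 and 53.2 CPM in control and 34.7, 29.8 and 26.6 CPM in the CD libraries. All CD libraries were below all controls. Its mean fell from 51.7 ± 2.57 to 30.3 ± 4.07 CPM, with a log2 fold change of -0.77 ± 0.14 (edgeR FDR of 0.00119), which makes the control level 1.70 times that of CD. Under the 14 alternative settings GCLC was called each time, with values between -0.86 and -0.72. GSH0, described as the modifier subunit, which lowers the sensitivity of the enzyme to inhibition by glutathione, was at 53.7, 52.3 and 44.4 CPM in control and 66.7, 46.2 and 50.6 CPM in CD. The groups overlapped and GSH0 was not called (log2 fold change 0.12 ± 0.16, edgeR FDR of 0.557), with a 95% interval from -0.23 to 0.48. The sign rested on CD replicate 1, since without this library the log2 fold change was -0.040.

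Within each library, the ratio of GSH0 to GCLC reads, likewise examined after the values had been seen, was 1.10, 0.985 and 0.833 in control and 1.93, 1.55 and 1.90 in CD. The CD ratios were all above the control ratios, with means of 0.973 ± 0.134 and 1.79 ± 0.209, a 1.84-fold increase (exact permutation test, two-sided p = 0.1).

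**Figure D2:**
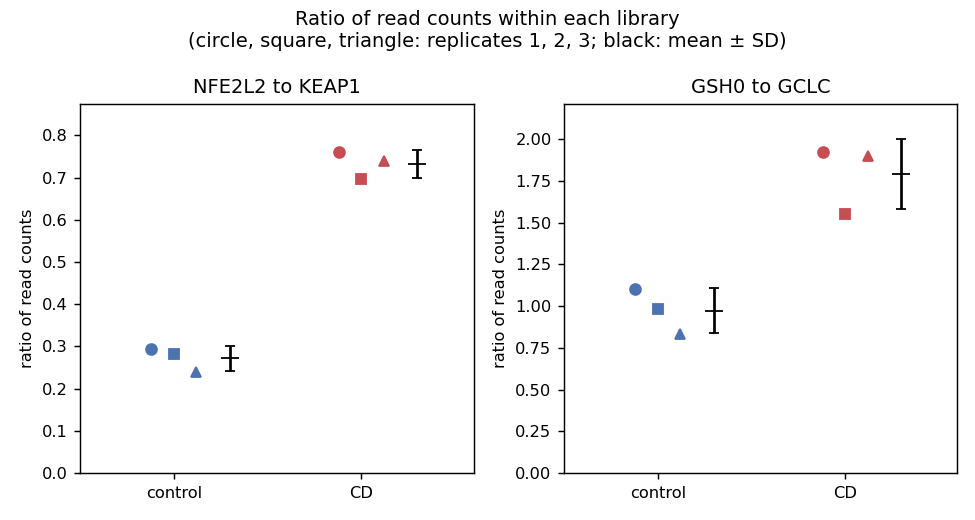
Ratio of read counts of NFE2L2 to KEAP1 (left) and of GSH0 to GCLC (right) within each of the 6 libraries, with the mean ± SD of 3 libraries in black. The CD ratios (red) are all above the control ratios (blue), at 0.696 to 0.761 against 0.238 to 0.295 on the left and at 1.55 to 1.93 against 0.833 to 1.10 on the right.

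NQO1 (ENSNVIG00000007661), the quinone reductase that is widely used as a readout of NRF2 activity, had 0 reads in each of the control libraries and 0, 1 and 2 reads in CD replicates 1, 2 and 3. Over the 3 control libraries together, 0 reads allow a level of up to 0.0648 CPM, taking 3 counts as the limit for counting error only, and the 3 reads in the CD libraries are at that limit. NQO1 was below the filter on low counts, no fold change is given, and a difference was not detectable at this depth.

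Among the partners and relatives of NRF2, the small MAFs rose more than 2-fold. Of 7 such genes, 6 were found and tested, 4 were higher and 1 was lower. Small MAF proteins have no activation domain and bind the antioxidant response element together with NRF2. MAFG was at 104, 104 and 112 CPM in control and 202, 246 and 251 CPM in CD, and it rose 2.18-fold (log2 fold change 1.12 ± 0.12, edgeR FDR of 5.22e-05). MAFK was at 24.0, 19.6 and 22.4 CPM in control and 56.2, 70.4 and 55.8 CPM in CD, a 2.76-fold rise (log2 fold change 1.47 ± 0.15, edgeR FDR of 3.33e-05). For both small MAFs every CD library was above every control library, and both were called under all 14 alternative settings. MAFF was not found by symbol.

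BACH1, the heme-regulated repressor that competes with NRF2 for these elements and holds HMOX1 down, was at 10.1, 12.4 and 8.43 CPM in control and 20.8, 12.6 and 8.07 CPM in CD replicates 1, 2 and 3. Of the CD libraries, replicate 1 was well above the controls, replicate 2 barely above and replicate 3 below them, and the gene was not called (log2 fold change 0.43 ± 0.31, edgeR FDR of 0.276). Without CD replicate 3 the log2 fold change was 0.66 and BACH1 was called (FDR 0.00494, edgeR), and without CD replicate 1 it was 0.02. BACH2, its relative known from lymphocytes, was lowly expressed, at 0.358, 0.795 and 0.496 CPM in control and 5.04, 2.70 and 1.80 CPM in CD, and was higher (log2 fold change 2.54 ± 0.45, edgeR FDR of 0.00121).

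The paralogs of NRF2 moved in opposite directions. NFE2L1, a factor anchored in the endoplasmic reticulum that is known to restore proteasome genes and to sense cholesterol, was at 188, 174 and 221 CPM in control and 397, 385 and 264 CPM in CD. Its mean rose from 195 ± 24.1 to 349 ± 73.4 CPM (log2 fold change 0.84 ± 0.17, edgeR FDR of 0.00234), with CD replicate 3 nearest to the controls. NFE2L3 was at 7.52, 8.17 and 5.95 CPM in control and 3.38, 3.44 and 3.03 CPM in CD, and it fell (log2 fold change -1.13 ± 0.20, edgeR FDR of 0.00133).

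**Figure D3:**
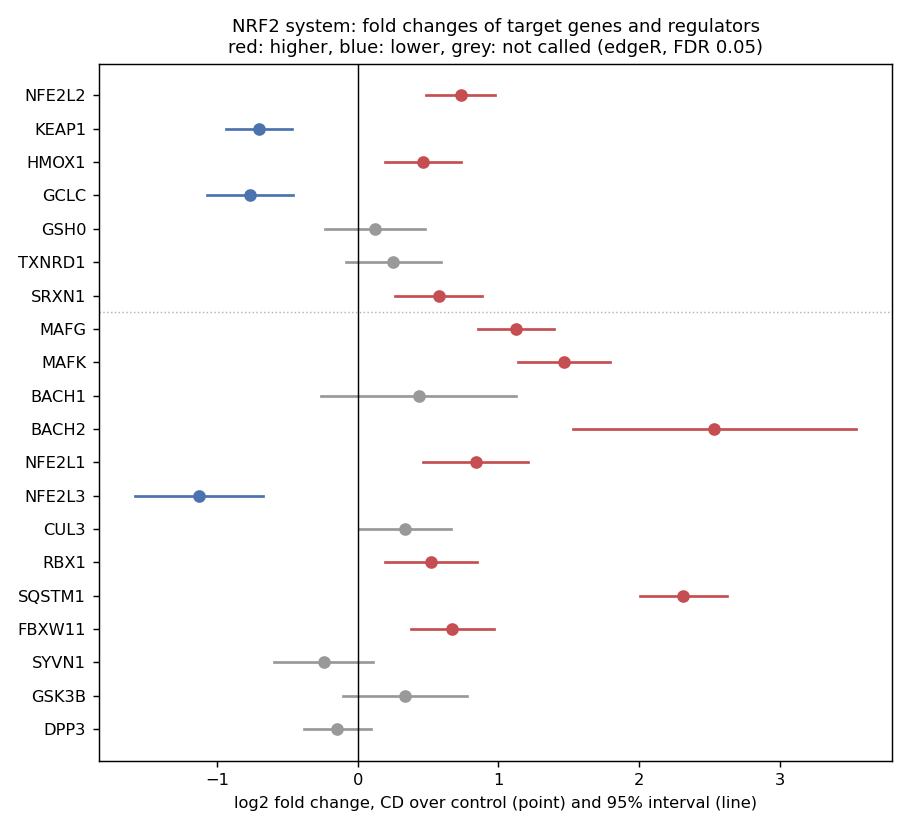
Log2 fold change of CD over control (horizontal axis) with its 95% interval for the tested genes of the set (above the dotted line) and for the partners of NRF2 and the genes of its degradation (below it); red marks genes called higher, blue genes called lower and grey genes not called by edgeR at an FDR of 0.05. NFE2L2 at 0.73 and KEAP1 at -0.70 stand on either side of 0, and SQSTM1, at 2.32, and BACH2, at 2.54, have the highest values.

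Of 8 genes of the KEAP1 complex and of NRF2 degradation, 7 were found and tested, 3 were higher and none was lower. SQSTM1, which encodes p62, a cargo receptor of autophagy that binds KEAP1 and is itself a target of NRF2, was at 628, 625 and 666 CPM in control and 2746, 3413 and 3391 CPM in CD (log2 fold change 2.32, FDR 1.24e-06, edgeR). RBX1, the RING subunit of the ligase, was at 42.9, 53.5 and 48.8 CPM in control and 60.5, 66.1 and 81.5 CPM in CD and rose 1.43-fold (log2 fold change 0.52 ± 0.15, edgeR FDR of 0.0152). FBXW11, a β-TrCP adaptor of the ligase that degrades NRF2 phosphorylated by GSK3, was at 41.1, 46.8 and 39.1 CPM in control and 75.3, 61.5 and 65.3 CPM in CD and rose 1.59-fold (log2 fold change 0.67 ± 0.13, edgeR FDR of 0.00216). RBX1 was not called without control replicate 1 or 3, whereas the calls of SQSTM1 and FBXW11 held in all 14 alternative settings. CUL3, the scaffold between KEAP1 and RBX1, was at 41.6, 44.7 and 34.3 CPM in control and 56.8, 44.8 and 50.3 CPM in CD. Its groups did not overlap, but the log2 fold change of 0.33 was not called (FDR 0.0861, edgeR). The kinase GSK3B (log2 fold change 0.34, FDR 0.183), the ligase SYVN1 (-0.24, FDR 0.233) and the KEAP1-binding peptidase DPP3 (-0.14, FDR 0.289) were not called by edgeR either. Without CD replicate 3, CUL3 (log2 fold change 0.30) and GSK3B (0.49) were called higher.

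The wider antioxidant program was examined as 92 other genes of the NRF2 pathway in 8 groups by role, the regulators above included. Of these, 73 were found and 64 were tested, and 27 were higher and 9 lower, so that 56.2% were called. Over all tested genes 47.7% were called, 24.8% higher and 22.9% lower. The median log2 fold change was 0.32, against 0.06 over all tested genes. By role, 27.3% to 83.3% of 4 to 13 tested genes were called, and no share was tested against that of all genes. Without CD replicate 3, 32 of the pathway genes were higher and 16 lower, in a fit that also called more of all tested genes (58.6%). In 6 of the 8 roles some genes were higher and others lower, while among the genes of NRF2 degradation and those that remove superoxide none was lower, as the plot by role shows.

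In glutathione synthesis and use, 4 of 11 tested genes were higher and 3 were lower. GSTT1, a glutathione transferase, was at 3.80, 4.34 and 3.97 CPM in control and 16.8, 20.6 and 26.1 CPM in CD, a 5.23-fold rise (log2 fold change 2.39, FDR 1.37e-05, edgeR). MGST3, a membrane-bound glutathione transferase and peroxidase, was at 142 to 161 CPM in control and 352 to 556 CPM in CD and rose 2.87-fold (log2 fold change 1.52, FDR 6e-05, edgeR). GLRX, which removes glutathione from proteins, rose 2.75-fold, from 11.2 ± 0.793 to 30.8 ± 2.76 CPM (FDR 3.75e-05, edgeR). The lower genes were SLC3A2, GPX1 and GPX8. SLC3A2, the heavy chain of the cystine transporter and of other amino acid transporters, was at 435, 409 and 486 CPM in control and 175, 223 and 220 CPM in CD (log2 fold change -1.10 ± 0.13, edgeR FDR of 9.99e-05). GPX1, the main cytosolic glutathione peroxidase, was at 1817, 1787 and 1762 CPM in control and 986, 1110 and 1352 CPM in CD (log2 fold change -0.64 ± 0.14, edgeR FDR of 0.00407). GPX8, a peroxidase of the endoplasmic reticulum, had a log2 fold change of -0.97 (FDR 0.0064, edgeR). In GPX1, GSTT1 and MGST3, CD replicate 1 was the lowest and CD replicate 3 the highest of the CD libraries.

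Among thioredoxin system and peroxiredoxin genes, 5 of 13 tested were higher and 2 were lower. The highest was TXNIP, which does not protect against oxidants but binds and inhibits thioredoxin. It was at 1.86, 1.45 and 1.16 CPM in control and 13.4, 17.3 and 10.4 CPM in CD, a 9.28-fold rise (log2 fold change 3.21 ± 0.27, edgeR FDR of 1.12e-05). The sestrins SESN1 and SESN3, stress proteins that also inhibit mTOR complex 1, rose by log2 fold changes of 1.24 and 1.16 (FDR 0.000617 and 0.0065, edgeR), and SESN3 was at 124 CPM in CD replicate 1 but at 63.2 and 51.7 CPM in CD replicates 2 and 3. Without CD replicate 1 the log2 fold change of SESN3 was 0.70, and it was still called. TXNRD3, a thioredoxin-glutathione reductase related to TXNRD1, was at 15.2 to 17.1 CPM in control and 25.4 to 30.4 CPM in CD, with a log2 fold change of 0.80 ± 0.14 (edgeR FDR of 0.00126). The lower genes were mitochondrial thioredoxin (listed as THIOM), with a log2 fold change of -0.62 (FDR 0.0053, edgeR), and PRDX6, a peroxidase of phospholipid hydroperoxides, with -0.34 (FDR 0.0489, edgeR), a call lost in 9 of 14 alternative settings.

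Of 6 genes that supply NADPH, all tested, 3 were higher and 1 was lower. IDH1, the cytosolic isocitrate dehydrogenase, was at 32.5, 35.9 and 35.4 CPM in control and 129, 133 and 141 CPM in CD, 3.88-fold higher (log2 fold change 1.96 ± 0.11, edgeR FDR of 1.05e-06). Malic enzyme ME1 was at 90.6 to 102 CPM in control and 155 to 181 CPM in CD (log2 fold change 0.80, FDR 0.000273, edgeR). Both enzymes are also known from lipid synthesis. In the pentose phosphate pathway, PGD was higher (log2 fold change 0.42, FDR 0.0195) and TALDO1 lower (log2 fold change -0.43, FDR 0.0184, edgeR). The call of PGD was lost without control replicate 1 or 2 or CD replicate 2, and that of TALDO1 without control replicate 1 or 3.

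**Figure D4:**
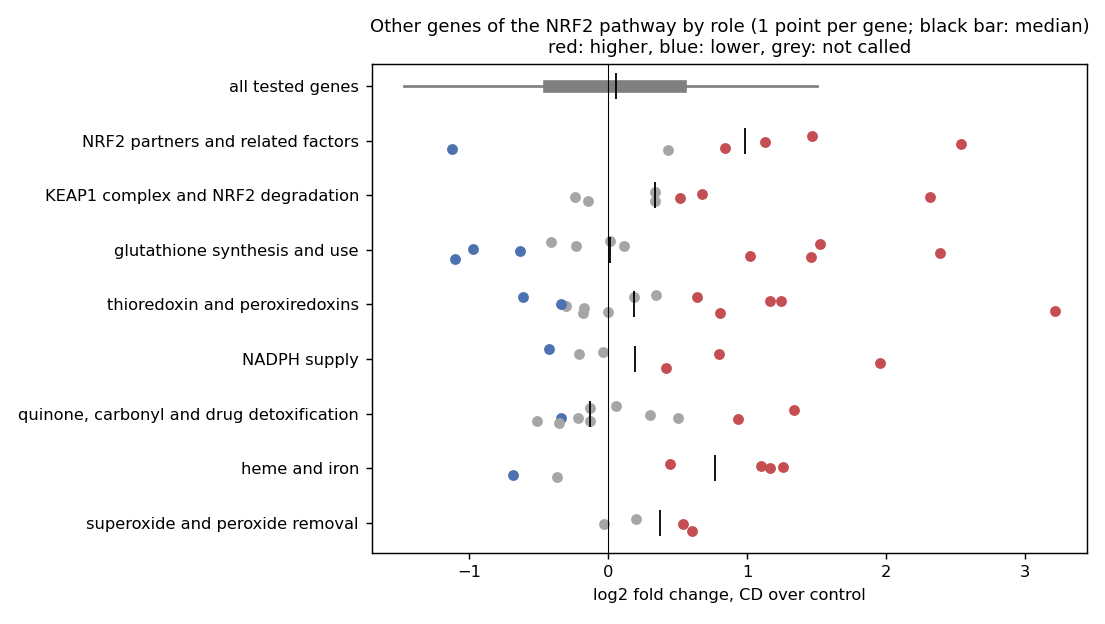
Log2 fold change of CD over control for the 64 tested genes of the pathway besides the set, 1 point per gene, grouped by role, with the median of each group as a black bar; red marks genes called higher, blue genes called lower and grey genes not called. The top row gives all 12148 tested genes, with the median, the middle 50% as a thick bar and the 5th to 95th percentile as a thin line from -1.47 to 1.51. Partners of NRF2 have the highest median of the 8 roles, at 0.98, and detoxification the lowest, at -0.13.

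In the reported fit, detoxification was the role with the lowest share of called genes. There 3 of its 11 tested genes were called (27.3%). This share depends on the libraries used. NQO2, AKR1A1, AKR1B1, UGDH, ABCC1 and ABCC4, not called in that fit, were each called in at least 1 fit with a library left out. ALDH3A2 and OSGIN1 were not called in any setting. ABCC5, an exporter of glutathione conjugates and nucleotides, was at 73.4 to 85.7 CPM in control and 164 to 237 CPM in CD (log2 fold change 1.34, FDR 6.99e-05, edgeR), ABCG2, a multidrug exporter, was lowly expressed and higher (log2 fold change 0.93, FDR 0.0127), and EPHX1, the microsomal epoxide hydrolase, was lower (log2 fold change -0.34, FDR 0.0488). ABCG2 was not called by DESeq2 or without control replicate 1 or 2, and the call of EPHX1 was lost in 7 of 14 alternative settings, among them the fits without control replicate 1 or 3 and without CD replicate 1 or 2.

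In heme and iron handling, 4 of 6 tested genes were higher and 1 was lower. Besides HMOX2, the next enzyme of heme breakdown, biliverdin reductase A (listed as BIEA), was higher, at 75.7, 87.5 and 84.4 CPM in control and 157, 170 and 229 CPM in CD (log2 fold change 1.17 ± 0.15, edgeR FDR of 0.000181). The other biliverdin reductase, BLVRB, was at 189, 191 and 196 CPM in control and 124, 142 and 180 CPM in CD. Every CD library was below every control library, but BLVRB was not called (log2 fold change -0.37, FDR 0.0522, edgeR). It was called in 6 of 14 alternative settings. FECH, which completes heme synthesis, rose 2.39-fold (log2 fold change 1.26, FDR 0.000202, edgeR). ABCB6, a porphyrin transporter, was at 362 to 429 CPM in control and 217 to 264 CPM in CD (log2 fold change -0.69, FDR 0.00129, edgeR). Of the 4 genes that remove superoxide and peroxide, the dismutases SOD1 (log2 fold change 0.60, FDR 0.0116) and SOD2, listed as SODM (log2 fold change 0.54, FDR 0.0225, edgeR), were higher and none was lower. SOD1 was at 475 CPM in CD replicate 3 but at 308 and 335 CPM in CD replicates 1 and 2, and its call was lost without control replicate 1. With CD replicate 3 left out, the log2 fold change of SOD1 was 0.35. SODM lost its call when control replicate 1, control replicate 3 or CD replicate 1 was left out, and stood at 0.36 on the log2 scale in the last case.

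Finally, the genes whose pattern over the 6 libraries was most like that of NFE2L2 were sought among the tested genes with a symbol, by the root mean square difference of mean-centred log2 CPM. The nearest were STN1 (0.0355), NUB1 (0.0424), SMAP1 (0.0544), WDR16 (0.0565) and CAP1 (0.0589), with log2 fold changes of 0.74, 0.75, 0.82, 0.72 and 0.73. As these genes were picked for their likeness in the same libraries, fold changes near that of NFE2L2 follow from the choice.

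**Figure D5:**
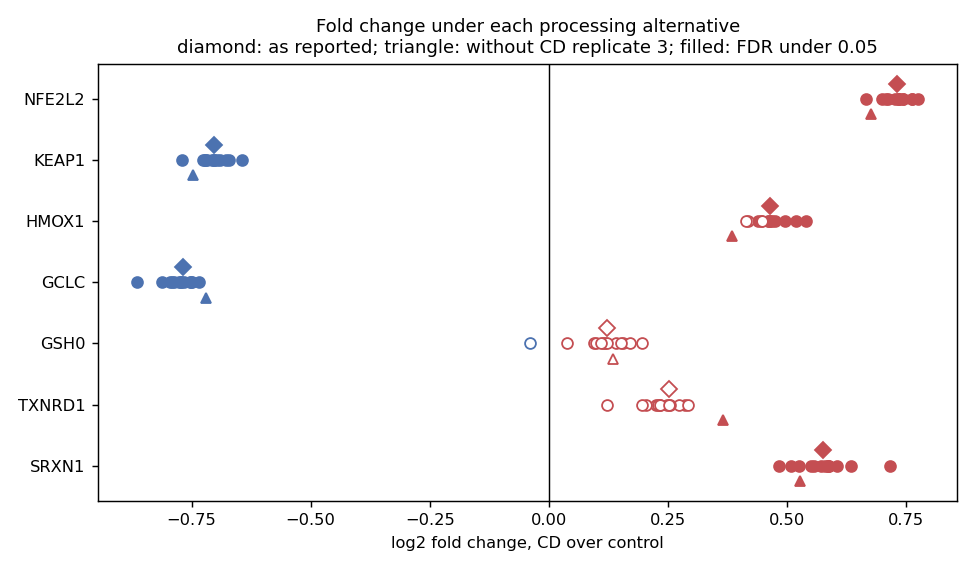
Log2 fold change of CD over control (horizontal axis) of the tested genes of the set and of GSH0 as reported (diamond) and under 14 processing alternatives (circles, with a triangle for the fit without CD replicate 3); filled symbols have an FDR under 0.05. NFE2L2, KEAP1, GCLC and SRXN1 stay filled throughout, HMOX1 is open in 3 alternatives, and TXNRD1 is filled only without CD replicate 3.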

How the data were processed

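The authors isolated poly(A) mRNA, made libraries with Nextera XT, trimmed the reads with fastp 0.20.1, aligned them with STAR 2.7.2a to the mink assembly NNQGG.v01 and used DESeq2 1.30.1, per the methods of the study and the submitters' processing notes. They deposited raw read counts per gene, without normalization. The counting program and its strand setting are not given in the sources used here, so overlapping and antisense genes and near-identical copies are uncertain. The 6 deposited normalized tables were not used. The 4 rows of read totals without a gene (29.3% to 47.2% of a library) were left out.

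Counts were tested with edgeR 4.0.16 in R 4.3.3 (filterByExpr with a minimum count of 10 and a total of 15, TMM, glmQLFit with robust estimation, glmQLFTest, condition as only term). The standard error is the absolute log2 fold change divided by the square root of F (median 0.18 over all tested genes). The fit was checked on simulated data with the same spread in both groups and few changed genes. That check does not cover the unequal spread and the many called genes of these data. Libraries of a group differed beyond sampling noise. Alternatives were DESeq2 1.42.0, limma-voom 3.58.1, 3 scalings, 2 filters, a block for the replicate number, leaving out single libraries in turn and, for the numbers of called genes, an FDR of 0.01.

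Members and gene lists were chosen with earlier results of these data known. Lists were matched by symbol, and 4 genes by the table's description. Named genes are the members, all partners of NRF2 and genes of its degradation, up to 4 called genes of each other role with the largest changes plus those in its rarer direction, and the 5 nearest to NFE2L2. BLVRB, SLC7A11 and the detoxification genes that were not called are given outside this rule. The annotation at hand is of assembly ASM_NN_V1, so no coordinates or lengths are given.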

Additional observations from a re-analysis of the deposited data

How the results depend on the processing

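Over the named genes, 660 of the comparisons between the reported value and an alternative kept the direction and the call, 33 lost the call, 4 gained it, and 1 changed sign, that of GSH0 without CD replicate 1 (log2 fold change -0.040, and -0.040 to 0.19 over all libraries left out in turn). With each library left out, HMOX1 stayed between 0.38 and 0.54 and TXNRD1 between 0.12 and 0.36 on the log2 scale. The number of lower genes among the 92 others of the pathway was 9, and 6 to 16 with a library left out, the highest without CD replicate 3, while over all genes it was 2784, and 2194 to 3606, the highest in the same fit. Of the 27 higher and 9 lower genes, 20 and 6 were called in every setting in which they were tested, and BACH2, among the 20, was not tested under the filter of 50 counts in 3 libraries. Correlations of the deviations of same-numbered control and CD libraries were -0.024, -0.329 and -0.185 and no library correlated best with its own number. With so few libraries this cannot exclude a shared day or culture, which the labels do not state. With the replicate block, 3 of the set were higher and 2 lower, as without it, and 26 and 9 of the others, with 2772 higher and 2636 lower over all genes in place of 3016 and 2784. With 3 libraries a group and a median standard error of 0.18, small log2 differences could not be called, and NQO1, with 3 reads in all, could not be judged.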
